A study of Mus musculus with 6 samples.

Results

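The genes described here encode the factors that start and extend protein chains on the cytosolic ribosome, with the enzymes and binding proteins named after them. They were chosen by symbol, as every gene named Eif followed by a number from 1 to 6 or Eef followed by 1 or 2, without Eif2s3x, Eif2s3y and pseudogene names. The rule found 62 genes of the 22180 genes with a probe set of their own, 49 of them named Eif and 13 named Eef. A probe set is the group of array probes that gives 1 value for a transcript. In 58 of the 62 genes the mean over all arrays was above the filter on dim genes (4.84 on the log2 scale), and these were tested. Mutant OcnCre+;iDTR+/- mice were compared with OcnCre-;iDTR+/- control mice, both aged 6 to 8 weeks and both injected with diphtheria toxin every day for 4 weeks. Cre is driven by the osteocalcin promoter and makes the cells that express it sensitive to the toxin, so osteocalcin-expressing bone cells were the target in mutants. Controls carried the same iDTR allele and received the same toxin but had no Cre. From each of 3 mutant and 3 control samples, Ly6D- common lymphoid progenitors, early marrow cells that can form T, B and natural killer cells, were sorted and measured on 1 Affymetrix array. Whether a sample was 1 mouse or a pool is not stated in the labels. The p-values therefore reflect the spread of these 6 samples alone, at a precision that 3 arrays a group allow.

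Translation of most messenger RNAs starts when the eIF4 factors bind the cap and unwind the leader, and when the small ribosomal subunit arrives with eIF1, eIF1A, eIF3 and eIF2, which carries the initiator tRNA. eIF5, eIF5B and eIF6 govern the later joining of the large subunit. During elongation eEF1A brings in each aminoacyl-tRNA, the eEF1B subunits recharge eEF1A with GTP, and eEF2 moves the ribosome along. eEF2 is also the protein that diphtheria toxin inactivates, through a modified histidine called diphthamide. Growing and dividing progenitors depend on high translation capacity, which is set in part through mTORC1 and the eIF4E-binding proteins and held back by the eIF2 kinases.

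Mutant replicate 2 stood apart over all probe sets: its correlations with the others were 0.935 to 0.954, beside 0.973 to 0.989 among those 5. Marker genes were checked against the labels, which give the cell type as Ly6D- CLPs and the tissue as marrow stromal cells. All 10 progenitor markers were above the filter, and 9 of 10 had a lower mutant mean (median -0.21; 6 of 10 below the median of their brightness class, 1 of 10 equal classes of tested genes by mean level). The lymphoid regulator Ikzf1 was at 8.67, 8.48 and 8.61 in mutants, against 8.86, 9.14 and 9.10 in controls (-0.45 ± 0.13, SE), and Il7r at 9.72 to 9.80 in mutants and 9.81 to 10.35 in controls. The 7 stromal and osteoblast markers with a value lay between 3.09 and 6.27 over all arrays, with Lepr lowest. The myeloid genes S100a8 (11.32 to 12.10 in mutants, 11.52 to 12.004 in controls) and Mpo (10.51 to 11.45 in mutants, 9.48 to 11.36 in controls) were bright in these sorted cells. With the control mean as 0, the 7 myeloid markers had medians of 0.36, -0.32 and 0.026 in mutant replicates 1, 2 and 3, against 0.20, -0.099 and -0.13 in controls, and 5 B cell markers had -0.28, -0.019 and -0.56 in mutants, against -0.33, 0.19 and 0.11 in controls. Among these B cell markers, Ly6d, which the label gives as negative, was at 7.57, 7.30 and 7.001 in mutants. In controls it was at 7.18, 8.14 and 8.25 (-0.57 ± 0.29, SE). Cd79a (10.017 to 10.53 in mutants, 10.265 to 10.735 in controls) and Pax5 (7.92 to 8.80 and 8.22 to 8.72) were also bright. Cd79b was at 10.015 to 10.31 in mutants and 10.14 to 10.91 in controls, while Ms4a1 was below the filter. The source of the Ly6d signal was not tested. All 3 erythroid markers with a value had a higher mutant mean (median 0.23), with Epor at 6.17, 6.49 and 6.11 in mutants, against 5.93, 5.82 and 5.92 in controls. All 3 tested T cell markers had a lower mutant mean (median -0.31), but the groups overlapped for each. Cd3e was at 5.85, 5.62 and 5.70 in mutants, against 5.32, 5.99 and 6.78 in controls. Cd3g was at 5.64, 4.89 and 5.14 in mutants, against 5.47, 5.52 and 6.35 in controls. Both were highest in control replicate 3, and Cd4 differed by -0.017. The part of these differences in the values of the translation factors was not tested. Eif2s3y, the Y-linked gene left out by the rule, was at 4.77 in mutant replicate 3 and 4.88 in control replicate 1 and at 7.31 to 7.85 on the other 4 arrays.

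The promoters of several members hold motifs of growth-related transcription factors close to the annotated start, and 4 windows are shown to let a reader see them. The sequences are from RefSeq, build GRCm38.p6, each running from 90 bases before the annotated start to 10 after it. Capitals mark the E-box CACGTG, which MYC-type factors can bind and which reads the same on both strands, or the ETS core CCGGAAGT, searched on both strands. The windows lie at chr10:81176541-81176640 (plus strand, Eef2), chr9:120492516-120492615 (plus strand, Eif1b), chr7:28981879-28981978 (minus strand, Eif3k) and chr1:63176741-63176840 (plus strand, Eef1b2).
Eef2: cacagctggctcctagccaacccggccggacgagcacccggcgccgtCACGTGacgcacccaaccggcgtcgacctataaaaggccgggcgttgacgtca
Eif1b: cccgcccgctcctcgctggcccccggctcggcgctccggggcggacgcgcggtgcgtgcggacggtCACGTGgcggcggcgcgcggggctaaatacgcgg
Eif3k: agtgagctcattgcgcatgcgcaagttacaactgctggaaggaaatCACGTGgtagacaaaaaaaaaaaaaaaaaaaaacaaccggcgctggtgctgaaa
Eef1b2: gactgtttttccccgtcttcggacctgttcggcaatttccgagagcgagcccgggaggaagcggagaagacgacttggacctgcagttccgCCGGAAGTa
Promoter windows (250 bases before the start to 50 after it) were listed for 48 of the 62 members, 63 windows in all. The E-box was in 22.2% of the members' windows, in 7.15% of all 32851 windows and in 9.55% of the windows of tested genes. The ETS core was in 17.5% of the members' windows, in 3.89% of all windows and in 7.14% of those of tested genes. Neither motif contains the other. Between mutant and control arrays, the 11 tested members with an E-box had a median log2 difference of -0.14, against -0.13 in the 35 tested members with a window and no E-box. For the ETS core these medians were -0.11 in 9 members and -0.14 in 37.

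Most of these genes were lower on average in mutant progenitors, but no gene passed the test. Of the 58 tested members, 49 had a lower and 9 a higher mutant mean, a share of 84.5% lower beside 57.5% of all 13308 tested genes. Their median log2 difference (mutant minus control) was -0.15, beside -0.043 over all tested genes. In limma, with Benjamini-Hochberg adjustment over all tested genes, 0 members passed an adjusted p of 0.05, where 0% of all genes did. Adjusted p ran from 0.594 to 0.998. At an unadjusted p under 0.05, 5 members (8.62%) were lower and 0 were higher, beside 6.02% and 2.01% of all tested genes. The unmoderated test gave 3 lower (Eef1d, Eif4e3 and Eif4g3) and 1 higher (Eif3c), 6.9% of members beside 6.61% of all tested genes. Leaving out mutant replicate 1 gave 17 members (29.3%) at an unadjusted p under 0.05, beside 22% of all tested genes. Leaving out mutant replicate 3 gave 3 (5.17%, beside 4.93%), and leaving out control replicate 2 gave 2 (3.45%, beside 2.58%). With array weights, which count mutant replicate 3 most and mutant replicate 2 least, 17 members (29.3%) passed the adjusted threshold, beside 22.2% of all tested genes. With Y-linked expression as a block, an alternative added after seeing the data, 0 members passed it and 4 (6.9%, beside 7.26% of all tested genes) had an unadjusted p under 0.05. Mutant values lay wholly below the control values in 7 members (12.1%, beside 9.99% of all tested genes) and wholly above them in 2 (3.45%, beside 5.4%). On bulk arrays fewer cells of a type and less RNA per cell cannot be told apart.

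Mutant replicates 2 and 3 carried the lower values before brightness was taken into account. With the control mean as 0, the members' median was -0.011, -0.25 and -0.17 in mutant replicates 1, 2 and 3, against -0.024, -0.0022 and 0.026 in control replicates 1, 2 and 3. Among tested members, mutant replicate 2 held the lowest of the 6 values for 29, mutant replicate 3 for 17 and mutant replicate 1 for 2. The 3 controls together accounted for the other 10 (4, 4 and 2). Mutant replicate 1 in turn held the highest value for 16 members. The median SD of the tested members was 0.25 among mutants and 0.094 among controls, beside 0.20 and 0.12 over all tested genes. The median difference of members was -0.095 without mutant replicate 2. Genes of like brightness were also low on these arrays, with medians of -0.42 and -0.18 for the brightest class in mutant replicates 2 and 3. With the median of the same class subtracted on each array, the members' medians were -0.013, 0.058 and -0.037 in mutant replicates 1, 2 and 3.

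**Figure D1:**
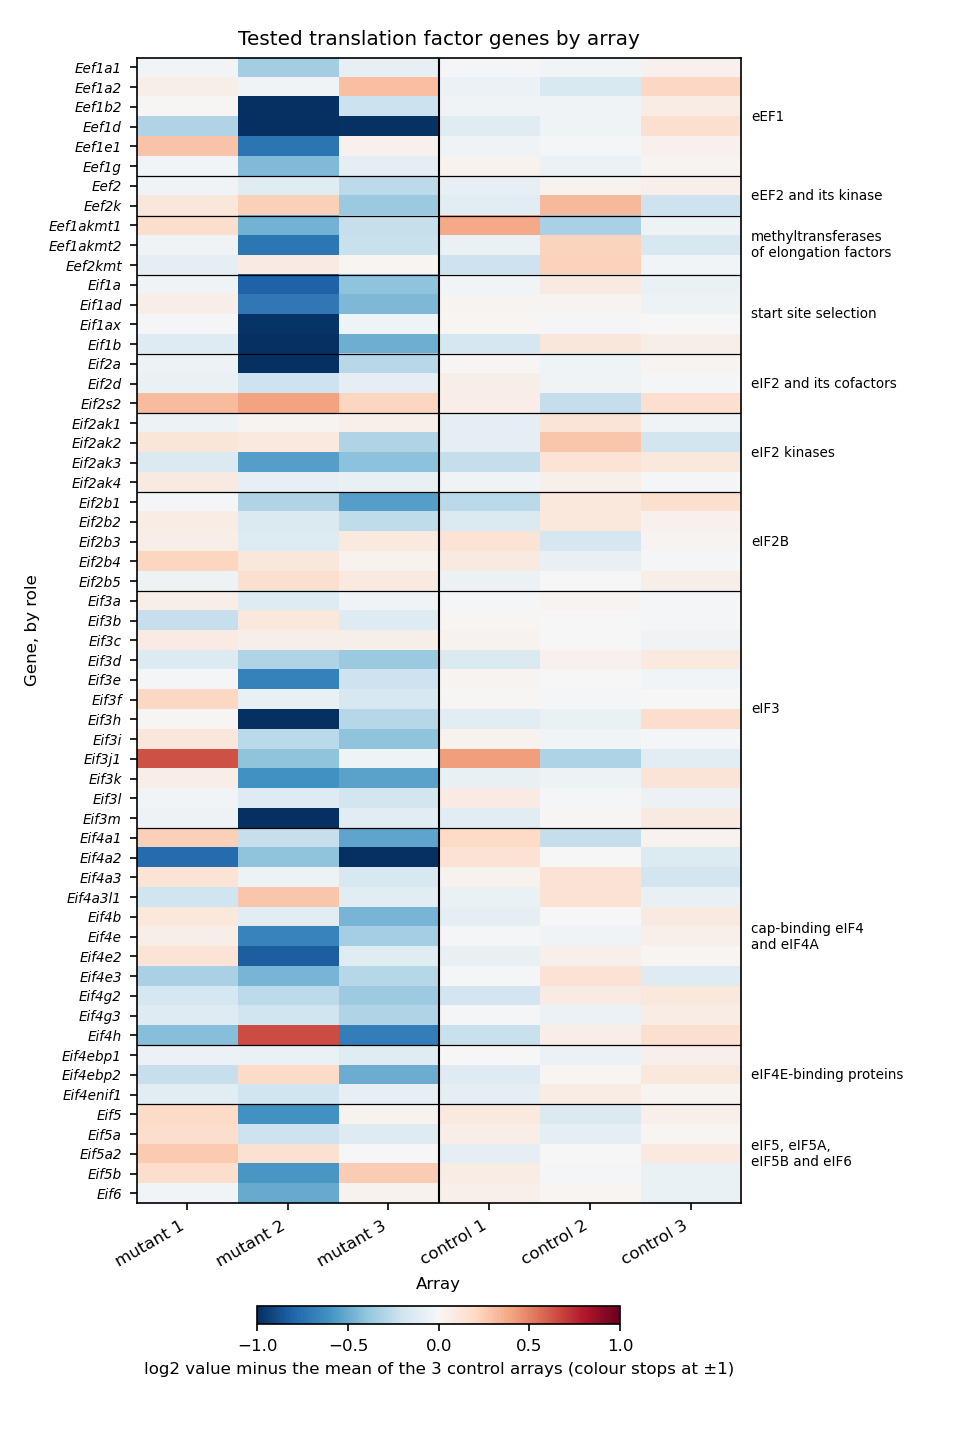
Each row is 1 of the 58 tested members, grouped by role, and each column 1 array, mutant arrays left of control arrays; the colour is the log2 value minus the mean of the 3 control arrays. Blue cells gather in mutant replicates 2 and 3, whose medians are -0.25 and -0.17, while mutant replicate 1, at -0.011, looks like the controls.

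Most of this shift was shared by other genes of like brightness. When tested genes were divided into 10 equal classes by their mean level, the median difference ran from 0.087 in the dimmest class to -0.21 in the brightest, and the share of genes with a lower mutant mean from 28% to 86%. Translation factors are bright: 25 of the 58 lay in the brightest class, and 24 of those 25 had a lower mutant mean. Weighted by where the members lay, 75.5% of genes in the same classes were lower, beside the members' 84.5%. After the median of the same class was subtracted on each array, the mutant mean was lower in 25 of 58 members (median 0.020), beside 50% of all tested genes. Repeated quantile normalization gave 25 lower (median 0.015), beside 49.9% of all tested genes, and cyclic loess 24 (0.030), beside 49.5%. Centring on array medians gave 39 (-0.094), beside 47.4%. Centring removes a shift that a whole array shares, and the other scalings also remove shifts that vary with brightness. Shares near 50% over all genes therefore follow from the method. The sign of the members' median thus depended on the scaling. The members in the dimmer 5 classes, 11 genes, had 6 lower and a median of -0.0013, against 43 of 47 lower and a median of -0.16 in the brighter 5 classes.

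**Figure D2:**
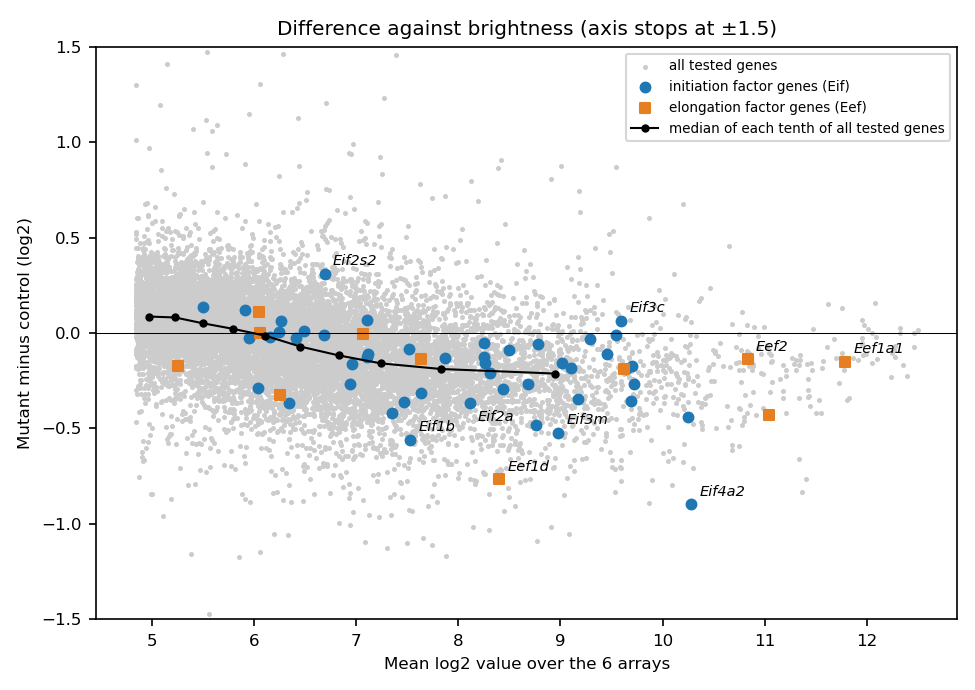
The mutant minus control difference (log2) of each tested gene is plotted against its mean log2 value over the 6 arrays, with initiation factor genes in blue, elongation factor genes in orange and the median of each class of all tested genes as a black line. The line falls to -0.21 at the bright end, and most members lie close to it, while Eef1d (-0.77) and Eif4a2 (-0.90) lie below and Eif2s2 (0.31) above.

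Among the elongation factors 10 of 11 tested genes had a lower mutant mean (median -0.15), but 4 of 11 were below their brightness classes (median 0.013 after subtraction). Eef1d, the delta subunit of the eEF1B exchange complex, had the lowest p of all members. It was at 8.48, 7.77 and 7.80 in mutant replicates 1, 2 and 3, against 8.66, 8.74 and 8.94 in control replicates 1, 2 and 3. Every mutant value lay below every control value, with mutant replicate 1 only slightly below. The means were 8.02 ± 0.40 in mutants and 8.78 ± 0.14 in controls (SD, n = 3 each), a difference of -0.77 ± 0.20 (SE, limma, unadjusted p = 0.00549, adjusted p = 0.594). After the median of its brightness class was subtracted the difference was -0.57, and without mutant replicate 1 it was -0.999 (adjusted p = 0.0641 in limma).

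The other eEF1B subunits did not follow Eef1d on all arrays. Eef1b2, the beta subunit, was at 11.27, 10.17 and 11.04 in mutants, against 11.22, 11.22 and 11.33 in controls. Its low value was in mutant replicate 2, and its difference of -0.43 ± 0.26 (SE) became -0.10 without that array. Eef1g, the gamma subunit, was at 9.70, 9.28 and 9.62 in mutants, against 9.75, 9.66 and 9.75 in controls (-0.19 ± 0.14, SE). Eef1e1, which joins the multi-tRNA synthetase complex, had its highest value, 7.98, in mutant replicate 1 and its lowest, 6.96, in mutant replicate 2, against 7.67 to 7.75 in controls. Eef1a1, the tRNA-delivering GTPase, was at 11.84, 11.52 and 11.79 in mutants, against 11.85, 11.84 and 11.91 in controls, and its tissue-restricted paralog Eef1a2 was at 6.04, 5.95 and 6.29 in mutants, against 5.93, 5.84 and 6.197 in controls. The groups overlapped for both genes, and the differences were -0.15 ± 0.13 and 0.11 ± 0.15 (SE). A probe set listed for both Eef1a1 and Gm6548 differed by 0.025, and near-identical copies of Eef1a1 make its value uncertain.

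Eef2, the translocation factor and toxin target whose promoter is shown above, was at 10.87, 10.78 and 10.64 in mutants, against 10.82, 10.94 and 10.95 in controls. Mutant replicate 1 lay within the control range and the other mutants slightly below it. The difference was -0.14 ± 0.12 (SE, adjusted p = 0.665 in limma), and 0.065 after subtraction of the median of its class. Eef2k, the kinase that inhibits eEF2, was at 7.18, 7.30 and 6.70 in mutants, against 6.95, 7.39 and 6.86 in controls, a difference of -0.0061 ± 0.20 (SE). For the enzymes that make diphthamide on eEF2, 10 symbols were listed, older names of the same genes among them, and 5 had a value. All 5 had a lower mutant mean (median -0.14), with 0 past an unadjusted p of 0.05, and after subtraction of their classes 3 of 5 were lower. Dph5, a methyltransferase of this pathway, was at 6.78, 6.16 and 6.55 in mutants, against 6.94, 6.54 and 6.77 in controls, and Dnajc24, a partner of the first step, was at 6.54, 5.41 and 6.54 in mutants, against 6.34, 6.32 and 6.29 in controls. Hbegf, whose primate form is the toxin receptor, was at 5.74, 5.83 and 5.86 in mutants, against 5.598, 5.33 and 5.58 in controls, without overlap (0.31 ± 0.12, SE, unadjusted p = 0.0368, adjusted p = 0.594 in limma).

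Of the enzymes that methylate elongation factors, 3 were tested and all 3 had a lower mutant mean (median -0.175). Eef1akmt2, a lysine methyltransferase of eEF1A, was at 6.38, 5.69 and 6.19 in mutants, against 6.34, 6.64 and 6.25 in controls (-0.33 ± 0.20, SE). Eef1akmt1 differed by -0.18 ± 0.22 and Eef2kmt, which acts on eEF2, by -0.0013 ± 0.14. Eef1akmt3 (3.85 to 4.09 over the 6 arrays) and Eef1aknmt (4.52 to 4.91) were below the filter and were not tested.

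All 4 tested genes named after eIF1 or eIF1A, factors of start site selection, were lower on average in mutants (median -0.39). All 4 also lay below their brightness classes (median -0.22). The grouping is by name, and Eif1 itself was not analysed here. Eif1b, a close relative of the scanning factor eIF1, was at 7.68, 6.75 and 7.32 in mutants, against 7.64, 7.92 and 7.86 in controls. Mutant replicate 1 lay just inside the control range and mutant replicate 2 far below it. The difference was -0.56 ± 0.23 (SE, unadjusted p = 0.039, adjusted p = 0.594 in limma) and -0.31 without mutant replicate 2. Eif1ax, the X-linked eIF1A gene, was at 9.33, 8.36 and 9.30 in mutants, against 9.36, 9.32 and 9.35 in controls, so that 1 array made nearly the whole difference of -0.35 ± 0.25 (SE), which was -0.029 without it. Eif1a differed by -0.42 ± 0.19 and Eif1ad, an eIF1A-like gene, by -0.37 ± 0.19, both again lowest in mutant replicate 2.

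The eIF2 genes differed in sign. Eif2s2, the beta subunit of eIF2, was at 6.85, 6.94 and 6.75 in mutants, against 6.60, 6.29 and 6.70 in controls. It was the member with the largest higher mean, its groups did not overlap, and the difference was 0.31 ± 0.14 (SE, unadjusted p = 0.0581, adjusted p = 0.594 in limma), and 0.27 to 0.36 on leaving out any 1 mutant array. Eif2a, which is not a subunit of eIF2 and can bring initiator tRNA to the ribosome on its own, was at 8.95, 7.88 and 8.73 in mutants, against 9.01, 8.96 and 9.03 in controls. These groups did not overlap either, but the difference of -0.48 ± 0.25 (SE) shrank to -0.16 without mutant replicate 2. Eif2d, a factor of ribosome recycling, differed by -0.12 ± 0.11 without overlap.

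The kinases that phosphorylate eIF2 under stress had a lower mutant mean in 3 of 4 cases (median -0.025). Eif2ak3, the sensor of unfolded protein in the endoplasmic reticulum (PERK), was at 6.38, 5.98 and 6.12 in mutants, against 6.29, 6.67 and 6.63 in controls. Control replicate 1 lay among the mutants, and the difference was -0.37 ± 0.16 (SE, unadjusted p = 0.0479, adjusted p = 0.594 in limma). Eif2ak4 (GCN2), which senses uncharged tRNA, was at 6.26, 6.08 and 6.09 in mutants, against 6.13, 6.22 and 6.15 in controls. The heme-regulated kinase Eif2ak1 was at 6.43, 6.51 and 6.53 in mutants, against 6.39, 6.61 and 6.44 in controls, and the RNA-activated kinase Eif2ak2 differed by -0.027 ± 0.17. Of the listed target genes of this stress response, 11 of 15 were tested, with 6 lower, 5 higher, a median of -0.00074 and 0 at an unadjusted p under 0.05 in either direction. After subtraction of their classes 3 of 11 were lower, with a median of 0.16. Atf4, its central transcription factor, was at 10.18, 9.54 and 10.13 in mutants, against 10.13, 10.07 and 10.14 in controls (chosen after its values were seen). The lowest p in the list was that of the serine synthesis gene Phgdh, at 8.05, 8.32 and 8.15 in mutants, against 8.10, 7.75 and 7.91 in controls.

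The 5 subunits of eIF2B, the exchange factor that reloads eIF2 and that phosphorylated eIF2 blocks, had 2 lower and 3 higher mutant means and a median of 0.0060. Eif2b2 was at 7.24, 7.02 and 6.91 in mutants, against 7.02, 7.27 and 7.21 in controls. Eif2b5, the catalytic subunit, was at 7.02, 7.24 and 7.17 in mutants, against 7.02, 7.07 and 7.13 in controls. The differences were -0.29 ± 0.18 (SE) for Eif2b1, 0.12 ± 0.11 for Eif2b4 and 0.0060 ± 0.13 for Eif2b3.

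Of the eIF3 subunits, which form the scaffold of the initiation complex, 12 were tested, and Eif3g was not analysed here. These 12 had 10 lower and 2 higher mutant means (median -0.15), with 5 of 12 below their brightness classes (median 0.046 after subtraction). Eif3c was at 9.64, 9.62 and 9.62 in mutants, against 9.598, 9.56 and 9.52 in controls, without overlap (0.066 ± 0.10, SE). Eif3a lay between 9.18 and 9.37 in mutants and between 9.29 and 9.34 in controls, Eif3f between 9.39 and 9.75 in mutants and 9.53 and 9.56 in controls, and Eif3b between 8.31 and 8.64 in mutants and 8.53 and 8.56 in controls. These 4 genes were above the median of the brightest class, by 0.27 for Eif3c, 0.17 for Eif3a, 0.19 for Eif3f and 0.11 for Eif3b. Eif3m, by contrast, was at 9.18, 7.83 and 9.12 in mutants, against 9.13, 9.24 and 9.33 in controls, a difference of -0.52 ± 0.33 (SE) that was -0.082 without mutant replicate 2. Eif3h was at 10.48, 9.43 and 10.19 in mutants, against 10.37, 10.41 and 10.65 in controls (-0.44 ± 0.25). Eif3e was at 8.58, 7.91 and 8.38 in mutants, against 8.61, 8.59 and 8.56 in controls (-0.30 ± 0.17). The same array, mutant replicate 2, was low for Eif3m, Eif3h and Eif3e and close to controls for Eif3c.

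Eif3k, whose promoter is also shown, was low on mutant replicates 2 and 3, at 9.26 and 9.34, with 9.94 in mutant replicate 1, against 9.80, 9.82 and 9.99 in controls (-0.36 ± 0.19, SE). Eif3d differed by -0.27 ± 0.13, Eif3i by -0.19 ± 0.15 and Eif3l by -0.11 ± 0.11. Another probe set of Eif3d, with a lower mean, differed by 0.041, so the 2 probe sets of this gene disagree in direction. Eif3j1, a loosely bound subunit, ranged from 5.83 to 6.87 in mutants and from 5.93 to 6.65 in controls (0.065 ± 0.28), and the probe set it shares with its near-identical copy Eif3j2 was at 9.27, 8.12 and 9.42 in mutants, against 9.27, 8.78 and 9.08 in controls. The signals of these copies may be mixed.

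The eIF4 group holds cap-binding proteins together with helicases, scaffolds, stimulators and related genes. All 11 of its tested genes had a lower mutant mean (median -0.21), but only 6 of 11 were below their brightness class. Eif4a2, an RNA helicase of the cap complex, had the largest difference of all members by its representative probe set, and -0.66 by the mean of its probe sets, where Eef1d had -0.77. The representative probe set (17324400) was at 9.96, 10.32 and 9.21 in mutants, against 10.87, 10.72 and 10.59 in controls. All mutant values lay below all control values, with mutant replicate 3 lowest, and the difference was -0.90 ± 0.26 (SE, unadjusted p = 0.00899, adjusted p = 0.594 in limma). Leaving out mutant replicate 2 made it -1.14, and leaving out mutant replicate 3 made it -0.59.

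The 3 probe sets listed for Eif4a2 alone did not share 1 pattern. Probe set 17324396 was at 8.31, 8.97 and 8.21 in mutants, against 9.37, 9.06 and 8.64 in controls, which is the same order of mutant arrays as in 17324400. Probe set 17324378 was at 9.57, 8.58 and 9.11 in mutants, against 9.55, 9.67 and 9.74 in controls, so that mutant replicate 2 was lowest and mutant replicate 1 lay within the controls. The differences were -0.53 for 17324396 and -0.56 for 17324378 (adjusted p = 0.596 each in limma over all probe sets). RefSeq places 5 small nucleolar RNA genes inside Eif4a2 on chromosome 16, among them Snord2 and Snora81. The probe sets listed jointly for Eif4a2 and these 2 genes followed the order of 17324378, with differences of -0.53 for Snord2 (17324394) and -0.48 for Snora81 (17324398). A further probe set, listed with Rfc4, differed by -0.070. Which part of the gene each probe set covers is not given in the sources used here, and whether spliced message, intron or a small nucleolar RNA was measured by 17324400 was not tested.

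**Figure D3:**
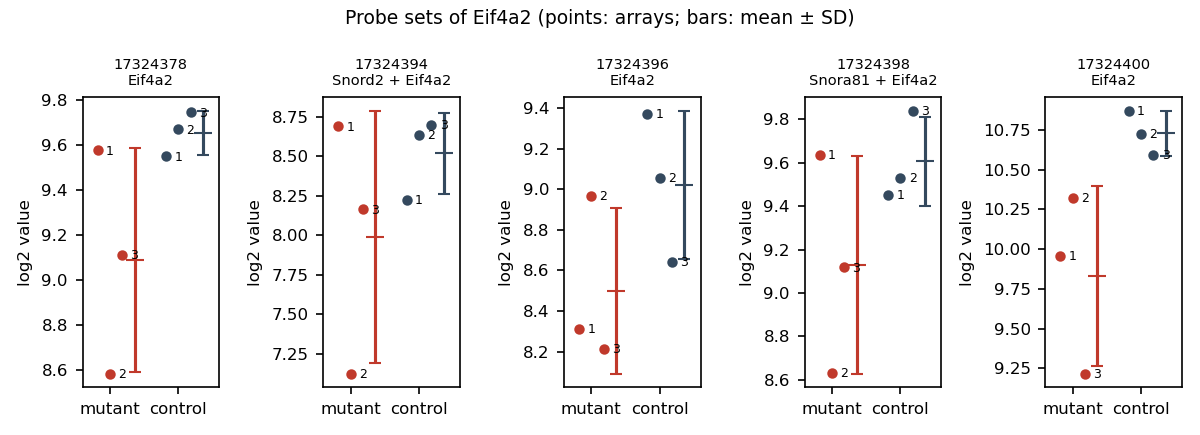
Log2 values of 5 probe sets listed for Eif4a2, alone or with a small nucleolar RNA gene; numbered points are arrays (mutant left of control) and bars are mean ± SD. Mutant replicate 2 is the lowest array in 17324378, 17324394 and 17324398 but the highest mutant array in 17324396 and 17324400.

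Its paralog Eif4a1 was at 10.03, 9.56 and 9.26 in mutants, against 9.99, 9.55 and 9.83 in controls, and overlapped (-0.17 ± 0.21, SE). Eif4a1 has a second probe set, with the same difference of -0.17 but mutant replicate 2 as its lowest array. Eif4e3, an unusual member of the cap-binding family, was at 7.32, 7.18 and 7.36 in mutants, against 7.63, 7.80 and 7.52 in controls. It did not overlap and the 3 mutant arrays were alike (-0.36 ± 0.12, SE, unadjusted p = 0.0203, adjusted p = 0.594 in limma), and -0.20 remained after subtraction of the median of its class. Eif4e, the main cap-binding protein, was at 7.85, 7.12 and 7.45 in mutants, against 7.77, 7.76 and 7.84 in controls (-0.32 ± 0.18), and Eif4e2, a repressive relative, at 7.21, 6.25 and 6.95 in mutants, against 6.999, 7.12 and 7.09 in controls (-0.27 ± 0.23).

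The scaffold genes Eif4g2 and Eif4g3 differed by -0.27 ± 0.13 and -0.21 ± 0.11 (SE), and Eif4g3 did not overlap. After subtraction of the median of their class these differences were -0.066 and -0.0059. Eif4h, a stimulator of the helicase, was at 7.91, 8.99 and 7.65 in mutants, against 8.12, 8.40 and 8.50 in controls. It was highest in mutant replicate 2, as were 5 other tested members (Eif2b5, Eif2s2, Eif3b, Eif4a3l1 and Eif4ebp2). Its difference was -0.15 ± 0.32, and -0.56 without that array. Eif4b, another stimulator, differed by -0.16 ± 0.16, Eif4a3, which marks exon junctions, by -0.026 ± 0.14, and its copy Eif4a3l1 by -0.010 ± 0.16. A brighter probe set, listed jointly for Eif4a3, Eif4a3l1 and Gm5576, was at 7.51, 6.80 and 6.92 in mutants, against 7.45, 7.42 and 7.31 in controls (-0.31, not tested). Eif4e1b was below the filter, at 3.78, 4.07 and 3.78 in mutants, against 3.48, 3.59 and 3.64 in controls, and was not tested.

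The eIF4E-binding proteins had mean differences from -0.18 to -0.082, but 0 of 3 were below their brightness classes (median 0.057 after subtraction). Eif4ebp1 was at 7.50, 7.49 and 7.44 in mutants, against 7.57, 7.51 and 7.61 in controls, without overlap but by a small margin (-0.082 ± 0.11, SE). Eif4ebp2 was at 8.96, 9.39 and 8.70 in mutants, against 9.07, 9.22 and 9.31 in controls (-0.18 ± 0.18), and Eif4enif1, which carries eIF4E into the nucleus, differed by -0.13 ± 0.11. Of 12 tested genes of the mTORC1 axis 9 were lower and 3 higher (median -0.099; 7 of 12 below their classes, median -0.035), with 0 at an unadjusted p under 0.05. The kinase gene Mtor was at 7.43, 7.60 and 7.32 in mutants, against 7.69, 7.80 and 7.68 in controls, without overlap (-0.27 ± 0.12, unadjusted p = 0.0526, adjusted p = 0.594 in limma). Its partner Mlst8 (-0.36 ± 0.17) and its activator Rheb (-0.60 ± 0.31) did not overlap either, and Rheb was at 6.04 in mutant replicate 2 against 7.39 to 7.53 in controls. Deptor, of the same list, lay wholly above the controls (0.14 ± 0.11, chosen after its values were seen). Over all tested genes 9.99% lay wholly below the controls and 5.4% wholly above. After subtraction of their classes the differences were -0.085 for Mtor, -0.34 for Mlst8, -0.44 for Rheb and 0.15 for Deptor.

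The late initiation factors had 4 of 5 lower mutant means and a median of -0.055, with 1 of 5 below its brightness class (median 0.087 after subtraction). Eif5a, the hypusine-bearing factor that helps ribosomes through difficult peptide bonds, was at 8.98, 8.60 and 8.68 in mutants, against 8.88, 8.72 and 8.83 in controls (-0.055 ± 0.14, SE). Its paralog Eif5a2 differed by 0.14 ± 0.12. Eif5b, the GTPase of subunit joining, was at 8.45, 7.69 and 8.53 in mutants, against 8.35, 8.27 and 8.21 in controls, so that 2 mutant arrays were above all controls and 1 far below. Eif5, which triggers GTP hydrolysis by eIF2, was likewise low in mutant replicate 2 alone (7.71, against 8.17 to 8.41 in controls), and Eif6, which keeps free large subunits apart, was at 7.02, 6.54 and 7.07 in mutants, against 7.09, 7.06 and 6.97 in controls. The enzymes that make hypusine differed by 0.13 ± 0.11 (Dohh) and -0.23 ± 0.20 (Dhps). The last member, Eif2c5, is named as an initiation factor but is a long non-coding RNA gene with the synonym Ago5 in RefSeq; it was below the filter, at 4.66 to 4.90 over the 6 arrays.

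**Figure D4:**
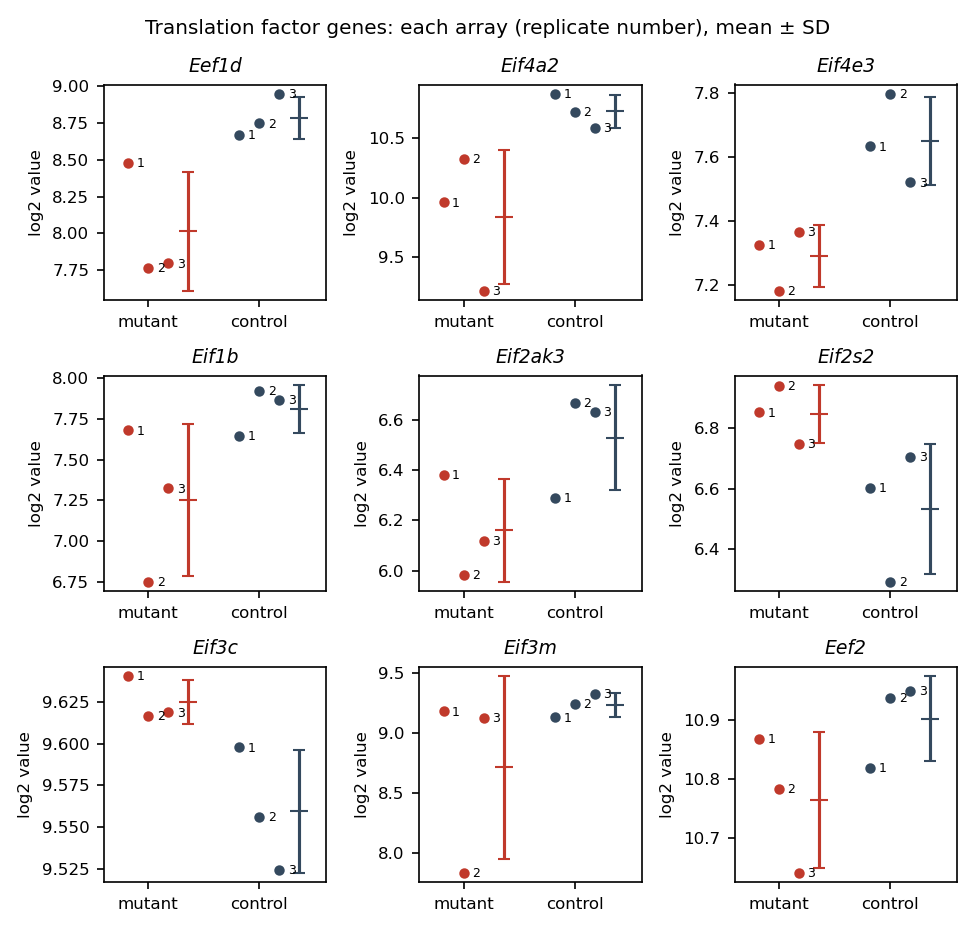
Log2 values of 9 members on each array (points numbered by replicate, mutant left of control) with the mean ± SD of each group; each panel has its own axis, which does not start at 0. Eef1d, Eif4a2 and Eif4e3 are lower in all mutants, Eif2s2 and Eif3c higher in all mutants, and in Eif1b, Eif3m and Eif2ak3 mutant replicate 2 is the lowest array.

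Other parts of the translation apparatus were set beside the factors. All 9 tested mitochondrial translation factors had a lower mutant mean (median -0.24), and all 9 lay below their brightness classes (median -0.21). Of these, 2 were lower at an unadjusted p under 0.05. Over all tested genes 6.02% were lower and 2.01% higher at that p, the shares to set beside each list here. Tufm, the mitochondrial counterpart of eEF1A, was at 7.38, 7.63 and 7.15 in mutants, against 7.79, 8.05 and 8.05 in controls, without overlap (-0.57 ± 0.16, SE, unadjusted p = 0.0063, adjusted p = 0.594 in limma). Mtif3, a mitochondrial initiation factor, was at 5.64, 5.84 and 5.62 in mutants, against 6.01, 6.21 and 5.89 in controls (-0.33 ± 0.13). In Tufm and Mtif3 mutant replicate 2 was the highest of the mutants, whereas the whole list had medians of 0.032, -0.49 and -0.19 in mutant replicates 1, 2 and 3, with the control mean as 0. Of 18 tested tRNA synthetase genes 16 were lower (median -0.13, 1 lower at an unadjusted p under 0.05), but 9 of 18 were below their classes. Sars, the serine enzyme, was at 7.46, 6.72 and 6.94 in mutants, against 7.49, 7.74 and 7.64 in controls (-0.58 ± 0.19). The termination and recycling genes had 4 of 7 lower (median -0.12), and the poly(A)-binding group 3 of 6 (median -0.021), with 0 members of either list at an unadjusted p under 0.05. After subtraction of their classes these lists had 2 of 7 lower (median 0.068) and 1 of 6 lower (median 0.16), so that both medians changed sign. Pabpc4, an inducible poly(A)-binding protein, was at 7.502, 8.14 and 7.896 in mutants, against 7.53, 7.61 and 7.61 in controls (0.27 ± 0.17). Pabpc1, the main poly(A)-binding protein, was at 8.38, 8.09 and 8.35 in mutants, against 8.46, 8.40 and 8.50 in controls (-0.18 ± 0.12), and Larp1, an RNA-binding target of mTORC1, differed by 0.19 ± 0.14.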

How the data were processed

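RNA of 3 mutant and 3 control samples was hybridised to 1 array each. The authors deposited 1 log2 intensity per probe set, for which the submitters' processing notes name RMA. Its version, annotation and genome build are not stated there. Of 41345 probe sets, 23521 had 1 gene symbol in the platform annotation and 1814 had several. Each of 22180 genes was represented by its single-symbol probe set with the highest mean over 6 arrays, and the lowest 40% by that mean were not tested, which left 13308. All 62 members matched RefSeq. The 2 groups were fitted with limma 3.58.1 (R 4.3.3, lmFit and eBayes), and two-sided p-values were adjusted by Benjamini-Hochberg over all tested genes (threshold 0.05). SE is that of the fitted difference. The script was tested on simulated data. Figures used matplotlib 3.10.9. Members and lists were chosen with earlier results of these data known. Values on every array are given for members at an unadjusted p under 0.05, for the brightest member of each role and for 9 genes fixed by name (Eef2, Hbegf, Eif5a, Eif4ebp1, Eif2ak4, Eif4a1, Eif4a2, Eef1a1, Eef1a2); further members were chosen after their values were seen. Lists name up to 3 genes by lowest p, with Atf4 and Deptor added after their values were seen. Eif1, Eif2s1, Eif3g, Eif4g1, Eif3j2 and Eif4ebp3 were not analysed here.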

Additional observations from a re-analysis of the deposited data

How the results depend on the processing

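For members past the threshold (adjusted p of 0.05) the count was 0 under each alternative with an adjusted p except array weights, which put a weight of 5.2 on mutant replicate 3 and 0.214 on mutant replicate 2 and gave 17. For genes past the threshold the count was 2960 with array weights. With equal weights, an unadjusted p under 0.05 in place of the adjusted one gave 5 members and 1068 genes. Leaving out 1 array gave 0 to 4 genes past the threshold, 4 without mutant replicate 1 and 1 without mutant replicate 2. It gave 41 to 50 for members with a lower mutant mean and -0.23 to -0.095 for the median difference of members. With repeated quantile normalization 25 members were lower (median 0.015), with cyclic loess 24 (0.030) and after subtracting the median of the same brightness class 25 (0.020). Over all tested genes these scalings gave 49.9%, 49.5% and 50% lower. Same-numbered samples correlated in their deviations at 0.132, 0.203 and -0.133. With 3 arrays a group such values cannot tell whether the numbers pair the samples, and the labels state no pairing. The replicate block gave 0 members past the threshold, 49 lower and a median difference of -0.15. The other filters, probe set choices, variance priors, array centring and the block on Y-linked expression kept the 4 results within the spread between arrays or within 1.5 times. Single members, none of which had passed the test, took another sign as follows. With cyclic loess these were Eef1a1 0.032, Eef1e1 0.039, Eef1g 0.026, Eef2 0.060, Eef2k 0.13, Eef2kmt 0.014, Eif2ak4 0.0069, Eif2b2 0.033, Eif2d 0.017, Eif3a 0.18, Eif3b 0.12, Eif3f 0.21, Eif3i 0.028, Eif3l 0.10, Eif4a1 0.039, Eif4a3 0.037, Eif4a3l1 0.087, Eif4b 0.063, Eif4ebp1 0.088, Eif4ebp2 0.038, Eif4enif1 0.056, Eif4h 0.049, Eif5 0.075, Eif5a 0.16, Eif5b 0.15. With repeated quantile normalization they were Eef1e1 0.014, Eef1g 0.021, Eef2 0.048, Eef2k 0.13, Eef2kmt 0.034, Eif2ak4 0.0078, Eif2b2 0.031, Eif2d 0.013, Eif3a 0.15, Eif3b 0.11, Eif3f 0.20, Eif3i 0.015, Eif3l 0.085, Eif4a1 0.025, Eif4a3 0.047, Eif4a3l1 0.11, Eif4b 0.038, Eif4ebp1 0.082, Eif4ebp2 0.014, Eif4enif1 0.050, Eif4h 0.043, Eif5 0.041, Eif5a 0.15, Eif5b 0.12. With the class median subtracted they were Eef1a1 0.052, Eef1e1 0.052, Eef1g 0.013, Eef2 0.065, Eef2k 0.15, Eef2kmt 0.011, Eif2b2 0.051, Eif2d 0.035, Eif3a 0.17, Eif3b 0.11, Eif3f 0.19, Eif3i 0.015, Eif3l 0.090, Eif4a1 0.028, Eif4a3 0.042, Eif4a3l1 0.097, Eif4b 0.046, Eif4ebp1 0.11, Eif4ebp2 0.021, Eif4enif1 0.057, Eif4h 0.035, Eif5 0.061, Eif5a 0.15, Eif5b 0.14. With centring on medians they were Eef2k 0.052, Eef2kmt 0.057, Eif2ak2 0.031, Eif2ak4 0.036, Eif3a 0.024, Eif3f 0.050, Eif4a3 0.032, Eif4a3l1 0.048, Eif5a 0.0034, Eif5b 0.0075. With array weights they were Eef1e1 0.017, Eif5 0.033, Eif5a2 -0.0064, Eif5b 0.23, Eif6 0.022. On leaving out 1 array the ranges were Eef1akmt1 -0.35 to 0.014, Eif2ak1 -0.035 to 0.073, Eef2k -0.13 to 0.18, Eef2kmt -0.10 to 0.11, Eif2ak2 -0.12 to 0.11, Eif2ak4 -0.078 to 0.0081, Eif2b3 -0.077 to 0.076, Eif3j1 -0.22 to 0.30, Eif4a3 -0.12 to 0.046, Eif4a3l1 -0.15 to 0.084, Eef1e1 -0.35 to 0.16, Eif3a -0.081 to 0.013, Eif3f -0.11 to 0.067, Eif4e2 -0.47 to 0.0084, Eif5 -0.29 to 0.11, Eif5a -0.17 to 0.022, Eif5b -0.20 to 0.21, Eif6 -0.26 to 0.0042, Eif4a1 -0.38 to 0.0035, Eif4b -0.28 to 0.00014, Eif4h -0.56 to 0.11. The cause was not tested. The deposited values carry no background signal, so the depth of single probe sets is unknown.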
